A study of Mus musculus with 8 samples.

Results

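The genes described here are 35 mouse genes of sugar breakdown: glucose transporters, the enzymes of glycolysis, lactate dehydrogenases and lactate carriers, the pyruvate dehydrogenase step, enzymes of the pentose phosphate pathway, and Hif1a, which encodes a transcription factor of many of these genes. They were chosen by name, and 35 of the 35 were found by Entrez Gene ID among the 27179 gene IDs of the deposited count table. RNA was sequenced from plasmacytoid dendritic cells (pDC) and conventional dendritic cells (cDC) sorted from the spleens of leukemia-bearing C57BL/6 mice. The mice had been given vehicle (named D5W in the table) or panobinostat (LBH589 or LBH, an inhibitor of histone deacetylases) for 2 days. Each of the 4 groups, pDC with vehicle, pDC with panobinostat, cDC with vehicle and cDC with panobinostat, held 2 libraries, and each library was made from a pool of 3 to 6 mice. The mice of every group carried leukemia, so no healthy dendritic cells were compared. The sources used here do not give the age of the mice, the genotype of the leukemia, the dose or the sorting gates. The study asked what panobinostat does to pDC in acute myeloid leukemia, and the design also allows pDC to be set against cDC.

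Glycolysis splits glucose into pyruvate, which either becomes lactate and leaves the cell through monocarboxylate carriers or enters mitochondria through pyruvate dehydrogenase. Hexokinase, phosphofructokinase and pyruvate kinase catalyse steps that are close to irreversible, and PFKFB enzymes make the sugar phosphate that activates phosphofructokinase. The pentose phosphate pathway branches off after hexokinase and supplies NADPH and ribose. Several steps are encoded by more than 1 gene, and these isoenzymes differ in kinetics and in the tissues that express them. Activated dendritic cells are known to raise glycolysis, and HIF1 is a known activator of many glycolytic genes.

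Total counts were 13124861 to 20657429 per library. The pDC panobinostat replicate 2 stood apart: counts were found for 10745 genes, against 14927 in replicate 1 of the same group and 16109 to 19950 in the other libraries, and the log2 levels of the pDC panobinostat pair correlated at 0.801, against 0.965 to 0.973 in the other groups. Its difference from replicate 1 also moved with transcript length, from a median log2 difference of 0.13 among the 25% of genes with the least exon length to -1.01 among the 25% with the most. In this library 6 of the 35 genes (Hk3, Pfkm, Eno3, Slc16a1, Slc16a3 and Pdk2) had 0 counts, which allows up to 3 counts each, and no other library had a 0 for any of the 35. Many results named below for the pDC panobinostat group are therefore also given without it. Isoenzyme shares and, unless stated, counts of genes at an unadjusted p or without overlap include it. The cell labels were checked against markers. Of 12 pDC markers, 11 were called higher in pDC under vehicle. Siglech was at 4059 to 6545 CPM (counts per 1000000 reads counted, after scaling) in pDC and 1.57 to 3.26 in cDC. Of 10 cDC markers, 5 were called lower and 1 higher in pDC under vehicle. Zbtb46, a transcription factor of cDC, was at 137 to 199.8 CPM in cDC and 2.37 to 19.6 in pDC. Cd209a of the same list went the other way, at 754 and 1103 CPM in pDC and 141.5 and 102 in cDC with vehicle. The extraction text of the labels speaks of sorted leukemia cells, whereas the sample names and these markers are those of dendritic cells.

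Markers of other cell types were also found and differed between the groups. Of 8 macrophage and monocyte markers, 5 were called lower and 2 higher in pDC than in cDC under vehicle. The summed list was at 2110 to 6926 CPM in pDC and 494 to 715.5 CPM in cDC, led in pDC by Ly6c2 and Ccr2, which pDC express themselves. The macrophage gene Adgre1 was at 0 to 4.96 CPM in pDC and 117 to 206.5 CPM in cDC, and Csf1r at 0 to 10.8 and 87 to 204. Summed erythroid markers, chiefly globins, ranged from 319.8 to 6548 CPM over the 8 libraries, neutrophil markers stayed at 9.18 CPM or less, B cell markers were at 105 to 431 CPM, and NK cell markers at 23.4 to 487 CPM, nearly all of it Klrk1 in pDC. Of the 7 T cell markers 2 were called higher in pDC under vehicle, and the sum was at 482 to 1661 CPM in pDC and 113 to 156 CPM in cDC; it was led in pDC by Cd4 and Cd8b1, while Cd3e was at 0 to 1.30 CPM there. Progenitor markers were at 259.8 to 399.6 CPM in cDC, led by Kit, and at 6.41 to 58.3 CPM in pDC, where Kit led with vehicle and Myb with panobinostat. The part of these other cells in the differences between pDC and cDC described here was not tested. In such bulk samples, fewer cells of a type and less RNA per cell cannot be told apart.

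The summed level of the 35 genes was lower in pDC. It came to 4605 and 4560 CPM in pDC with vehicle, 4609 and 4529 CPM in pDC with panobinostat, 6572 and 6137 CPM in cDC with vehicle, and 6351 and 6666 CPM in cDC with panobinostat. The pDC and cDC libraries did not overlap, while vehicle and panobinostat libraries of the same cell type did. Per kilobase of exon, the gene with the highest level was Taldo1, which encodes transaldolase of the pentose phosphate pathway, at a mean of 259.9 CPM per kb in pDC and 386 in cDC with vehicle. Ldha followed at 143 and 197, Aldoa at 131 and 109, Pkm at 90.2 and 172, and Eno1 at 73.9 and 135 CPM per kb. This order rests on the merged exon lengths, such as 2171 bases for Taldo1 and 5001 bases for Pkm. In CPM not divided by length, Taldo1 was also highest in pDC with vehicle (mean 564). In cDC with vehicle Pkm was highest (mean 862, against 838 for Taldo1). Gapdh, an abundant transcript in most cells, was at 10.9 and 17.8 CPM per kb, over a merged exon length of 4133 bases. Gapdh, Ldha, Pgam1, Pkm, Eno1, Tpi1 and Aldoa have near-identical copies elsewhere in the genome, and how reads that match several places were handled is not given in the sources used here, so the levels of these genes are uncertain.

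Under vehicle, pDC and cDC differed in which genes they expressed for the same steps of sugar breakdown. Of the 35 genes, 15 (42.9%) passed the test, with an adjusted p under 0.05 in the quasi-likelihood test of edgeR; 33% of the 13744 genes tested passed it. In pDC, 5 (14.3%) were higher, against 15% of all genes: the glucose transporters Slc2a3 and Slc2a6, the aldolase Aldoc, the lactate dehydrogenase Ldhb and the pyruvate dehydrogenase kinase Pdk2. The 10 (28.6%) that were lower, against 18% of all genes, were Hk2, Hk3, Pfkfb3, Tpi1, Gapdh, Pgam1, Eno3, Pkm, Slc16a1 and Slc16a3. The median log2 difference, pDC against cDC, was -0.18 over the 35 genes and 0.03 over all genes tested. With another scaling of the libraries (RLE), the median over all genes moved to -0.10 and that of the 35 genes to -0.30, and the directions of the 15 called genes stayed the same. Both pDC libraries lay above both cDC libraries for 11 of the 35 genes (31.4%, against 35.8% of all genes) and below them for 16 (45.7%, against 35.2%). The median standard error was 0.218 over the 35 genes and 0.294 over all genes, and these shares were not adjusted for that. The p-values rest on the spread between the 2 libraries of each group, each from a pool of mice, with information on spread shared across genes. The labels do not say whether pDC and cDC libraries of the same number came from the same pool, and this fit did not pair them.

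**Figure D1:**
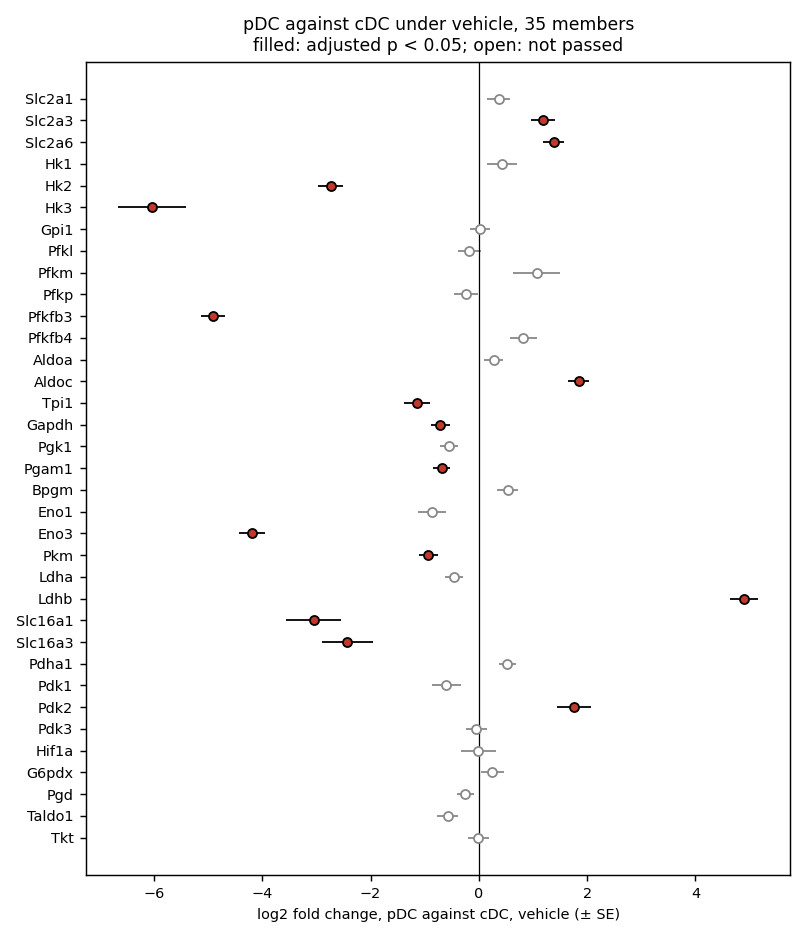
Difference between pDC and cDC with vehicle for each of the 35 genes, as the log2 fold change (x axis) with bars of 1 standard error; filled points passed an adjusted p of 0.05. The filled points to the right are 5 genes led by Ldhb at 4.90, and those to the left are 10 genes led by Hk3 at -6.04.

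**Figure D2:**
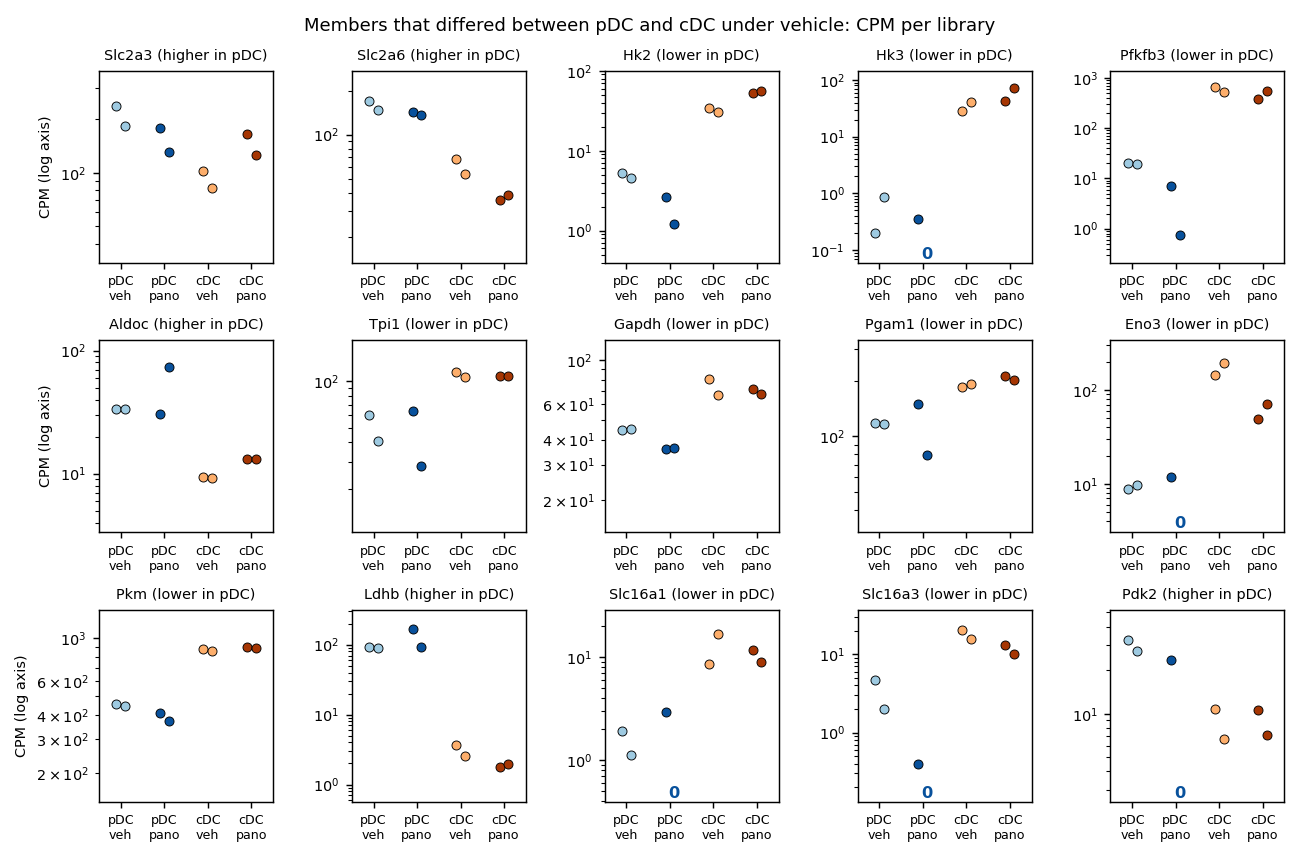
Level of each of the 15 called genes in the 8 libraries (y axis, CPM on a log scale; each point is 1 library, and a 0 marks a library without counts). Ldhb sits above 90 CPM in the 4 pDC libraries and below 4 in the 4 cDC libraries, and Pfkfb3 shows the opposite order, with pDC at 19.9 or less and cDC at 381 or more.

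The widest called gaps after Hk3 were those of Pfkfb3 and Ldhb, so their promoters are shown here beside that of Ldha, the other lactate dehydrogenase gene, from RefSeq on GRCm38.p6, each 250 bases before to 50 bases after a transcript start, read 5′ to 3′ on the gene's strand. Capitals mark the core that HIF1 can bind, ACGTG or GCGTG on either strand (CACGT or CACGC where the core lies on the other strand); a CACGTG, the E-box that MYC and MAX can bind, holds the core on both strands.
Ldhb, chr6:142507908-142508207, minus strand: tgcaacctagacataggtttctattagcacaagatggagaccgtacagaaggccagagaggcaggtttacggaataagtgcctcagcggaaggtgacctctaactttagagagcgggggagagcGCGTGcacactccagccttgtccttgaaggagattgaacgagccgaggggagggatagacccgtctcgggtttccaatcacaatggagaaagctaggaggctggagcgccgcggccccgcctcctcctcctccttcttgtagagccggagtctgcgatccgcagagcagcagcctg
Ldha, chr7:46845554-46845853, plus strand: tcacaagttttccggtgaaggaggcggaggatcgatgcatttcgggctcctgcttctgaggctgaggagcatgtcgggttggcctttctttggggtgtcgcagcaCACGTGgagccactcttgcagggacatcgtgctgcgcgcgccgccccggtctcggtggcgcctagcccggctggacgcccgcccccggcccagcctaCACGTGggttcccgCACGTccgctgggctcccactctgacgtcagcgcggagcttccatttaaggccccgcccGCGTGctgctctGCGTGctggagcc
Pfkfb3, first start, chr2:11553880-11554179, minus strand: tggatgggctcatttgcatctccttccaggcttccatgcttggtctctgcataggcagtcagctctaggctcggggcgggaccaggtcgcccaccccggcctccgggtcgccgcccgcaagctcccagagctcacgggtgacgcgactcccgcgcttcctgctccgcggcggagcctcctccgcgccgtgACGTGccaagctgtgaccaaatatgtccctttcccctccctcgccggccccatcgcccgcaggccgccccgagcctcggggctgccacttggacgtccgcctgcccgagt
Pfkfb3, second start, chr2:11502041-11502340, minus strand: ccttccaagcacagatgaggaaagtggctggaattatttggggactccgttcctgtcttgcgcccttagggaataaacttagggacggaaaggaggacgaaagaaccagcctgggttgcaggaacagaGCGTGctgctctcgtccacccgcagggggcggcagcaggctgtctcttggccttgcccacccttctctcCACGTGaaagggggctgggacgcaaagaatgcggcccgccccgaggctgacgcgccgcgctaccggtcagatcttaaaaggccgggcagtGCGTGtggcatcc
The Ldha window held 7 matches of the core, counting each CACGTG on both strands, and the Ldhb window 1. A further Ldha window, chr7:46846832-46847131, is not shown; it held 2 matches and no CACGTG. The window at the upstream start of Pfkfb3 held 1 and that at the downstream start 4. RefSeq windows were found for 34 of the 35 genes (not for Slc2a3), 49 in all. The core was in 39 of the 49 (79.6%), against 43.8% of all 32851 windows and 49.3% of the 21263 windows of protein-coding genes, and CACGTG was in 6 (12.2%), against 7.15% and 7.84%. Some of the 49 windows overlap each other, as for Eno1, Aldoa and Pfkm, so the same core can be counted more than once. These counts describe letters in the windows, and no binding was measured.

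The balance of the 2 lactate dehydrogenase genes differed between the cell types, chiefly through Ldhb. Ldhb (chromosome 6, 142490249 to 142507957 on mm10), which encodes the heart-type subunit that favours turning lactate into pyruvate, was at 94 and 91 CPM in pDC with vehicle and 168 and 93.3 CPM in pDC with panobinostat. In cDC it was at 3.63 and 2.54 CPM with vehicle and 1.78 and 1.96 CPM with panobinostat. Every pDC library thus lay above every cDC library, and under vehicle the log2 difference was 4.90 ± 0.26 (SE, n = 2 and 2; adjusted p = 0.000888). Ldha (chromosome 7, 46842274 to 46855627), the muscle-type subunit, was at 466 and 482 CPM in pDC and 661 and 644 CPM in cDC with vehicle. The groups did not overlap, but the difference of -0.46 ± 0.17 missed the threshold (adjusted p = 0.0975; 0.0485 when the replicate number was added as a block, here called a replicate block). Set per kilobase, Ldhb made up 29.8% and 28.5% of the summed lactate dehydrogenase level in pDC with vehicle, and 1.15% and 0.825% in cDC. Per kilobase, the summed level of both genes lay close together, at 200.8 and 203.5 CPM per kb in pDC and 202 and 196 in cDC. These shares and sums rest on merged exon lengths of 1570 bases for Ldhb and 3310 bases for Ldha. In CPM not divided by length, the Ldhb share was smaller, and the sum was lower in both pDC libraries than in both cDC libraries.

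The lactate carriers followed the opposite order at low levels. Slc16a1, which encodes the carrier MCT1, was at 1.92 and 1.14 CPM in pDC and 8.66 and 16.8 CPM in cDC with vehicle. Slc16a3, which encodes MCT4, the carrier tied to lactate export in glycolytic cells, was at 4.69 and 2 CPM in pDC and 20.4 and 15.7 CPM in cDC. Both were lower in pDC in both libraries, by a log2 difference of -3.05 ± 0.51 for Slc16a1 (adjusted p = 0.0115) and -2.43 ± 0.48 for Slc16a3 (adjusted p = 0.0178; 0.0634 without cDC vehicle replicate 1).

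The first step, phosphorylation of glucose, was also split by cell type. Hk1 (chromosome 10, 62268855 to 62379920), the hexokinase of most tissues, was at 105 and 72.8 CPM in pDC and 78.3 and 53.5 CPM in cDC with vehicle, and these ranges overlapped. Hk2 (chromosome 6, 82725025 to 82774454), the inducible hexokinase of muscle, tumours and activated immune cells, was at 5.19 and 4.54 CPM in pDC and 34.6 and 30.4 CPM in cDC (log2 difference -2.74 ± 0.23, adjusted p = 0.00202). Hk3 (chromosome 13, 55005985 to 55021475), known from myeloid cells, was at 0.202 and 0.865 CPM in pDC and 28.7 and 41.2 CPM in cDC (-6.04 ± 0.63, adjusted p = 0.0034). Hk2 and Hk3 thus lay in separate ranges in the 2 cell types. Of the summed hexokinase level per kilobase, Hk1 made up 93% and 89.6% in pDC with vehicle and 40.3% and 27.8% in cDC. Hk3 made up 34.3% and 49.6% in cDC. These shares rest on merged exon lengths of 8532 bases for Hk1 and 3682 bases for Hk3. In CPM not divided by length, Hk1 lay above Hk3 in both cDC libraries with vehicle. Adgre1 and Csf1r, the macrophage genes given above, were higher in cDC in the same direction as Hk3, and their part in its level was not tested.

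At the phosphofructokinase step the call fell on a regulator, Pfkfb3, and on none of the 3 enzyme genes. Pfkl, the liver-type subunit, was at 92.8 and 69.1 CPM in pDC and 97 and 86.1 CPM in cDC, and Pfkp, the platelet type, at 121 and 88.8 against 135 and 114 CPM; neither was called. Pfkm, the muscle type, was at 16.4 and 8.92 CPM in pDC and 7.41 and 4.66 CPM in cDC, a difference of 1.07 ± 0.43 that missed the threshold (adjusted p = 0.119; 0.0241 with a replicate block). Pfkfb3 (chromosome 2, 11471430 to 11554071), whose product has the strongest tilt of its family toward making the activator of phosphofructokinase, was at 19.9 and 19.8 CPM in pDC and 660.2 and 530.1 CPM in cDC. This difference of -4.91 ± 0.23 (adjusted p = 0.000802) was the widest called of the 35 after Hk3. Pfkfb4, its relative, went the other way, at 38.5 and 32.4 CPM in pDC and 23.1 and 16.9 CPM in cDC, without passing (0.82 ± 0.24, adjusted p = 0.053; 0.0163 with a replicate block). Pfkfb3 therefore made up 25% and 28.3% of the level of these 2 genes per kilobase in pDC and 94.8% and 95.3% in cDC.

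Of the 3 glucose transporter genes, 2 were higher in pDC. Slc2a3 (chromosome 6, 122727809 to 122802363), which encodes GLUT3, a transporter with high affinity for glucose, was at 237 and 183 CPM in pDC and 102 and 82.4 CPM in cDC with vehicle (1.19 ± 0.22, adjusted p = 0.015). Slc2a6 (chromosome 2, 27021363 to 27028000), which encodes GLUT6, a transporter of intracellular membranes, was at 169 and 147 CPM in pDC and 67.6 and 53.9 CPM in cDC (1.38 ± 0.20, adjusted p = 0.00763). Slc2a1, which encodes GLUT1, the widespread transporter, was at 24.6 and 20.5 against 18.6 and 16.4 CPM, and this gap missed the threshold (0.37 ± 0.22, adjusted p = 0.257). Both called transporters lost the call when a cDC vehicle library was left out: Slc2a3 without replicate 1 (adjusted p = 0.0525) and without replicate 2 (0.0983), and Slc2a6 without replicate 2 (0.056).

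Of the 11 genes between glucose phosphate and pyruvate other than the phosphofructokinase step (Gpi1 to Pkm), 5 were called lower and 1 higher in pDC. Of all genes tested, 18% were called lower and 15% higher. Aldoa, the main aldolase, was at 357 and 408 CPM in pDC and 327 and 305 CPM in cDC and was not called. Its relative Aldoc, the brain-type aldolase, was at 33.6 and 33.2 CPM in pDC and 9.36 and 9.28 CPM in cDC (1.84 ± 0.20, adjusted p = 0.00364). The aldolase gene with the lower level was thus the one that passed. Gpi1, which turns glucose phosphate into fructose phosphate, lay at 292 and 340.5 CPM in pDC and 311 and 312 CPM in cDC, with no gap between the groups. Tpi1, which joins both products of aldolase into 1 stream, was at 60.0 and 40.8 CPM in pDC and 115 and 107 CPM in cDC (-1.14 ± 0.24, adjusted p = 0.0207). For Gapdh the values were 44.9 and 45.2 CPM in pDC and 80.6 and 66.8 CPM in cDC (-0.71 ± 0.18, adjusted p = 0.0365). For Pgam1, the phosphoglycerate mutase, they were 118 and 118 CPM in pDC and 185 and 194 CPM in cDC (-0.68 ± 0.16, adjusted p = 0.0274). Each of these 3 had both pDC libraries below both cDC libraries, but Gapdh and Pgam1 lost the call when any 1 of the 4 libraries was left out (adjusted p from 0.0547 to 0.269), and Tpi1 when either cDC library was.

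Enolase and pyruvate kinase close the pathway. Eno1, the widespread enolase, was at 460.0 and 335 CPM in pDC and 830.5 and 621 CPM in cDC, which missed the threshold (-0.87 ± 0.26, adjusted p = 0.0559; 0.00639 with a replicate block). Eno3 (chromosome 11, 70653125 to 70662513), the muscle-type enolase, was at 8.92 and 9.67 CPM in pDC and 144 and 195 CPM in cDC (-4.19 ± 0.24, adjusted p = 0.000914). Per kilobase, Eno3 made up 5.66% and 8.2% of the enolase level in pDC and 34.9% and 49.3% in cDC. The merged exon lengths behind these shares were 1739 bases for Eno3 and 5379 bases for Eno1, so the Eno3 share was smaller in CPM. Pkm, the pyruvate kinase gene, was at 457 and 445 CPM in pDC and 872 and 852 CPM in cDC (-0.93 ± 0.17, adjusted p = 0.0152), and lost the call without cDC vehicle replicate 1 (0.107) or replicate 2 (0.103). Counts per gene do not separate its M1 and M2 transcripts. Pgk1, which makes the first ATP of the pathway, was at 110.3 and 121 CPM in pDC and 160.3 and 181 CPM in cDC (-0.56 ± 0.17, adjusted p = 0.0589; 0.0238 with a replicate block). Bpgm, which makes the phosphoglycerate that tunes haemoglobin, was at 34 and 33.8 against 21.8 and 25.1 CPM and was not called; erythroid markers overlapped between these groups, at 2164 and 1190 CPM in pDC and 1392 and 724 CPM in cDC.

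At the entry of pyruvate into mitochondria, 1 kinase gene differed. Pdk2 (chromosome 11, 95026258 to 95041371), whose product switches pyruvate dehydrogenase off, was at 32.2 and 27 CPM in pDC and 10.8 and 6.69 CPM in cDC (1.76 ± 0.31, adjusted p = 0.0135; 0.0622 without cDC vehicle replicate 2). Pdk1, the kinase gene known as a HIF1 target, was at 17.2 and 27 CPM in pDC and 33.4 and 33.8 CPM in cDC and was not called. Pdk3, with the highest level of the family per kilobase, was at 59.4 and 75.4 against 69.6 and 69.6 CPM. Pdha1, the catalytic subunit that these kinases phosphorylate, was at 77 and 76 CPM in pDC and 55.2 and 51.1 CPM in cDC (0.53 ± 0.16, adjusted p = 0.0604; 0.0357 with a replicate block).

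Neither Hif1a nor the pentose phosphate genes were called between the cell types. Hif1a was at 104 and 193 CPM in pDC and 149 and 150.0 CPM in cDC with vehicle, so that the cDC values lay between the pDC values. G6pdx, the gatekeeper of the pentose phosphate pathway, was at 68.3 and 76.6 against 70.1 and 51.8 CPM, Pgd, the next NADPH-making enzyme, at 58.1 and 56.8 against 71.3 and 65.2 CPM, and Tkt, transketolase, at 302 and 260.4 against 311 and 255 CPM. Taldo1 was at 515 and 614 CPM in pDC and 799 and 878 CPM in cDC (-0.57 ± 0.19, adjusted p = 0.0786; 0.0264 with a replicate block). Of the G6pdx exon bases 13.6% are shared with Ikbkg, and of the Pdha1 exon bases 16.1% with Map3k15, in each case on the opposite strand, and without knowledge of strand in the counting these reads cannot be told apart.

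How many of the 35 genes passed depended on how the spread was estimated. When all 8 libraries shared 1 estimate, 7 remained called (9.73% of all genes were called): Slc2a3, Slc2a6, Hk2, Hk3, Pfkfb3, Pkm and Ldhb. The other 8 then had adjusted p of 0.0642 (Aldoc) to 0.681 (Pdk2). With the replicate number as a block, 22 were called (43.4% of all genes). An unadjusted p under 0.05 was reached by 22 of the 35 and by 44.7% of all genes. Hk2, Hk3, Pfkfb3 and Ldhb were called in 12 of the 12 alternatives that were run.

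**Figure D3:**
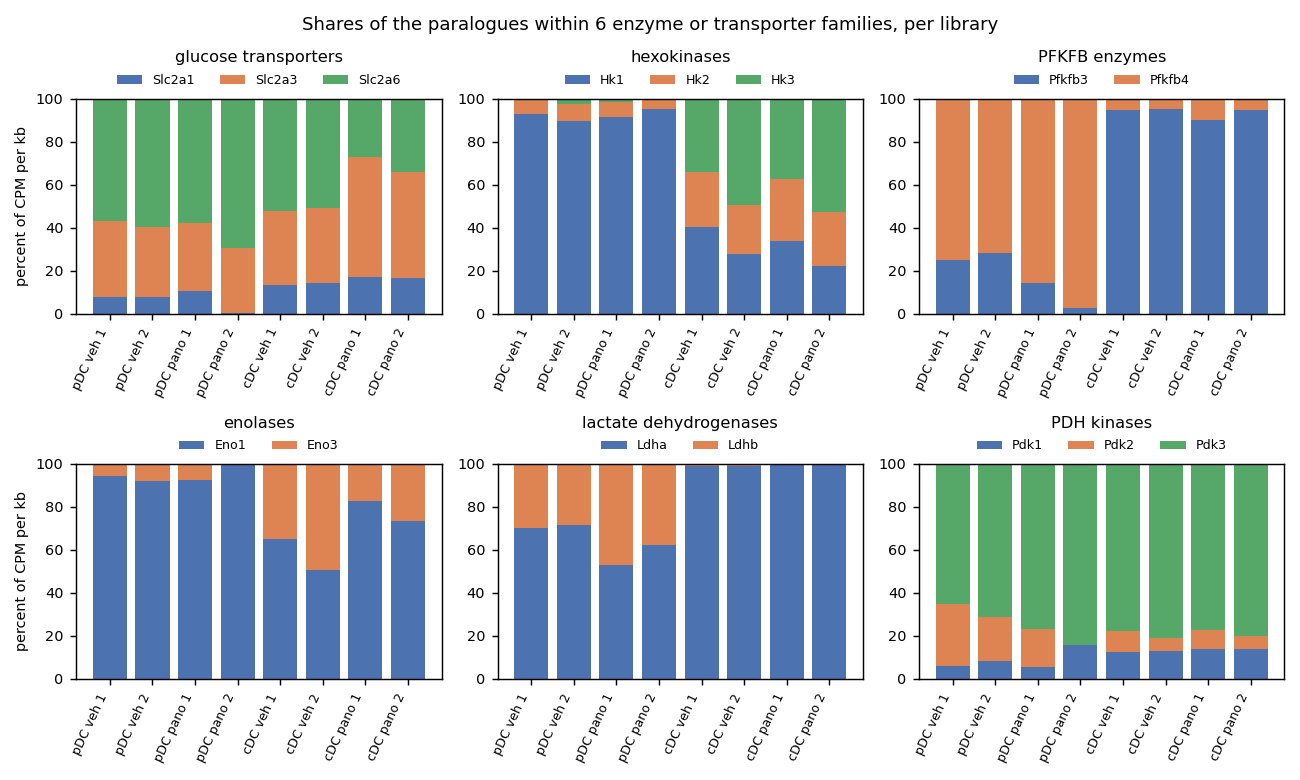
Share of each isoenzyme gene in its family's summed level (y axis, percent of CPM per kb) in the 8 libraries, for 6 families; each bar is 1 library. Ldhb fills 28.5% or more of the lactate dehydrogenase bars in pDC and 1.15% or less in cDC, and the pDC and cDC bars of the hexokinases, PFKFB enzymes and enolases differ likewise.

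Genes of neighbouring pathways were read from lists. Of 54 other genes of sugar metabolism, 36 were tested under vehicle, and 7 were higher and 4 lower in pDC (30.6% called, close to the 33% of all genes; median log2 difference 0.14, against 0.03). Galk1, which brings galactose into the pathway, was at 135 CPM in pDC and 23.8 CPM in cDC (means; log2 difference 2.51 ± 0.17, adjusted p = 0.00122). Pgam2, the muscle-type phosphoglycerate mutase, was at 132 against 2.55 CPM (5.69 ± 0.59, adjusted p = 0.00336), opposite in direction to Pgam1. Galm, which interconverts the forms of galactose, had 5 and 3 counts in pDC and 159 and 194 in cDC (adjusted p = 0.00231), and Gpd2, of the glycerol phosphate shuttle, was at 32.6 against 99.2 CPM (-1.61 ± 0.17, adjusted p = 0.00369). The 2 galactose enzymes named here thus went in opposite directions.

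Of 25 regulators of glycolytic genes, 23 were tested, and 5 were higher and 2 lower in pDC (30.4% called, again close to 33%; median -0.02). Txnip, which promotes removal of glucose transporters from the surface, was at 184 against 68.7 CPM (1.42 ± 0.20, adjusted p = 0.00755), and Max, the partner of MYC, at 203 against 106 CPM (0.94 ± 0.17, adjusted p = 0.0141). Vhl, which targets HIF1 for destruction, was lower in pDC, at 49.2 against 98.9 CPM (-1.01 ± 0.22, adjusted p = 0.0254), and Epas1, which encodes HIF2 alpha, had 0 and 2 counts in pDC and 13 and 40 in cDC (adjusted p = 0.0438). Of 21 other HIF1 targets found in the data, 18 were tested, and 3 were higher and 5 lower (44.4% called, median -0.37). The mitophagy genes Bnip3l (1.05 ± 0.16, adjusted p = 0.00865) and Bnip3 (1.21 ± 0.23, adjusted p = 0.0157) were higher. The lipid droplet gene Plin2 (-1.36 ± 0.20, adjusted p = 0.00843) and the repressor gene Bhlhe40 (-1.17 ± 0.18, adjusted p = 0.009) were lower. Called genes of this list went in both directions, as did those of the 35. Of the 20 tricarboxylic acid cycle genes, 20 were tested and 18 were not called (10% called, against 33%; median 0.07). The exceptions were Dlst, of the oxoglutarate dehydrogenase complex (0.59 ± 0.16, adjusted p = 0.0418), and the malate dehydrogenase Mdh2, at 276 CPM in pDC and 960.5 CPM in cDC (-1.80 ± 0.18, adjusted p = 0.00315). In the other 4 comparisons 0 genes of these 4 lists were called with edgeR. An unadjusted p under 0.05 was reached there by 3 of 94 genes for panobinostat in pDC (3.19%, against 4.22% of all genes), 8 of 99 for panobinostat in cDC (8.08%, against 9.64%), 25 of 99 for pDC against cDC under panobinostat (25.3%, against 22.4%) and 9 of 100 for the difference between the cell types (9%, against 7.77%).

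Under panobinostat, the same 2 cell types were compared with libraries that the vehicle comparison did not use. Ldhb was again higher in pDC, by 6.12 ± 0.49 (adjusted p = 0.0468; 6.43 and 0.00145 without pDC panobinostat replicate 2), and it was the 1 gene of the 35 that was called; 1.11% of 13274 genes were, 0.731% higher and 0.384% lower in pDC. It was not called with limma-voom (adjusted p = 0.0909), where 2 of the others were (5.15% of all genes). With a replicate block 3 of the 35 were called (4.08%), with DESeq2 9 (15.5%), and with all 8 libraries fitted together 11 (18%). An unadjusted p under 0.05 was reached by 13 of the 35 and by 22.4% of all genes. Of the 15 genes called under vehicle, 15 had the same sign here, and for 13 of them (86.7%) the pDC and cDC libraries did not overlap in that direction. Over all genes called under vehicle and tested here, 92.8% had the same sign and 81.2% did not overlap in that direction, and over all genes tested in both comparisons 75.6% had the same sign, against 27 of the 35 (77.1%). The log2 difference of Pdk2, which had 0 counts in pDC panobinostat replicate 2, was 0.42 (1.35 without that library). Its sign turned with a replicate block (-2.72), with limma-voom (-3.67) and without pDC panobinostat replicate 1 (-10.21). The sign of Slc2a3 was not the same in all alternatives (-0.15 to 0.29). Slc2a6 was at 143 and 136 CPM in pDC and 35.9 and 38.5 CPM in cDC (1.91 ± 0.22, adjusted p = 0.0576; 0.00289 without pDC panobinostat replicate 2). For Hk3 the values were 0.347 and 0 CPM in pDC and 42.6 and 72.5 CPM in cDC (adjusted p = 0.12; 0.0492 with a replicate block, 0.0037 without pDC panobinostat replicate 2), and for Pfkfb3 7.09 and 0.743 against 381 and 559.7 CPM (adjusted p = 0.116; 0.0131 with a replicate block, 0.00268 without that library). Slc2a3, at 178 and 131 against 165 and 126 CPM, and Pdk2, at 23.7 and 0 against 10.7 and 7.11 CPM, were the 2 of the 15 whose libraries overlapped. The median over the 35 genes was -0.61, against -0.17 over all genes (-0.53 and -0.09 without pDC panobinostat replicate 2). With both libraries, 7 (20%, against 26.2%) lay above and 18 (51.4%, against 37.4%) below without overlap. Leaving out either pDC panobinostat library, which leaves 1 in the group, raised the count: without replicate 2, 22 of the 35 were called (43.5% of all genes were), and without replicate 1, 25 were (75.3%).

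In pDC, none of the 35 genes passed the test of panobinostat against vehicle. Of the 12697 genes tested, 0% passed with edgeR, 104 (0.819%) passed with DESeq2 and 0 with limma-voom; an unadjusted p under 0.05 was reached by 536 (4.22%). Of the 35 genes, 34 were tested (Hk3 had too few counts), 0 were called with edgeR, DESeq2 or limma-voom, and 2 reached an unadjusted p under 0.05. These were Hk1, at 105 and 72.8 CPM with vehicle and 47.8 and 35.1 CPM with panobinostat (-1.10 ± 0.39, unadjusted p = 0.0397, adjusted p = 0.959; -0.95 and 0.315 without pDC panobinostat replicate 2), and Gpi1, at 292 and 340.5 against 206 and 204 CPM (-0.62 ± 0.24, unadjusted p = 0.0488, adjusted p = 0.959; -0.67 and 0.413 without it). Both libraries with panobinostat lay below both with vehicle for these 2 genes. The standard errors were wide: their median over the genes of the group was 0.40 here, against 0.15 for panobinostat in cDC. A missed threshold in pDC therefore does not show that a gene was unchanged. Over all genes tested the medians were larger, at 0.885 in pDC and 0.202 in cDC. The shares of the group called or without overlap, set beside those of all genes, were not adjusted for this.

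Across the group, more genes lay below vehicle than above it in pDC. The panobinostat libraries were both below both vehicle libraries for 17 of the 34 genes (50%, against 25.1% of all genes) and both above for 5 (14.7%, against 17.5%): Pgk1, Bpgm, Pdha1, Hif1a and Taldo1. The median was -0.26, against -0.09 over all genes, and -0.20 without pDC panobinostat replicate 2, against -0.03. Hif1a was at 104 and 193 CPM with vehicle and 265 and 255 CPM with panobinostat (0.81 ± 0.37, adjusted p = 0.959; 0.78 and 0.481 without pDC panobinostat replicate 2), the highest estimate among the 34. Taldo1 went from 515 and 614 to 730.3 and 1051 CPM and Pfkfb3 from 19.9 and 19.8 to 7.09 and 0.743 CPM, both without passing (0.32 and -1.54, adjusted p = 0.737 and 0.205, without that library). Taken alone, pDC panobinostat replicate 1 lay below both vehicle libraries for 19 of the 34 genes (55.9%, against 35.2% of all genes) and above both for 12 (35.3%, against 38.7%). Among NK cell markers, Klrk1 was at 22.9 and 42.8 CPM with vehicle and 177.5 and 487 CPM with panobinostat in pDC. The other 6, Ncr1 and Prf1 among them, were at 0 in the second of these panobinostat libraries. Summed T cell markers were at 1068 and 1661 against 482 and 722 CPM. This sum was led by Cd4, at 690 and 794.5 against 272 and 280 CPM, and Cd8b1, at 373 and 858 against 196.5 and 387 CPM. Lck of the same list went the other way, at 3.63 and 3.73 against 10.3 and 46.2 CPM. Erythroid markers were at 2164 and 1190 against 6548 and 2406 CPM. The part of these markers in the differences was not tested. Without pDC panobinostat replicate 1, which leaves the library that stood apart alone, 13 of the 35 genes were called, 2 higher and 11 lower (49.1% of all genes), and the median was -0.58.

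In cDC, the panobinostat values were closer to each other and no gene passed there either. Of 13605 genes tested, 0% passed with edgeR, 266 (1.96%) with DESeq2, 0 with limma-voom and 109 (0.801%) with a replicate block; an unadjusted p under 0.05 was reached by 1311 (9.64%). Of the 35 genes 0 were called with edgeR, 3 with DESeq2 and 1 with a replicate block, 10 (28.6%) reached an unadjusted p under 0.05, 18 (51.4%, against 22.7% of all genes) had both panobinostat libraries above both vehicle libraries, and 5 (14.3%, against 18.7%) had both below. The median was 0.12, against 0.01 over all genes. When libraries were scaled by their totals only, both moved down together, to -0.02 and -0.13.

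The lower 5 in cDC were Slc2a6, Aldoa, Eno3, Ldhb and Slc16a3. Eno3 was at 144 and 195 CPM with vehicle and 49.1 and 71.4 CPM with panobinostat (-1.49 ± 0.25, adjusted p = 0.392), with a blocked value of -1.50 (adjusted p = 0.0287) and an adjusted p of 3.14e-06 with DESeq2. Its share of the enolase level per kilobase was 34.9% and 49.3% with vehicle and 17.3% and 26.8% with panobinostat. Slc2a6 was at 67.6 and 53.9 CPM with vehicle and 35.9 and 38.5 CPM with panobinostat (-0.71 ± 0.15, adjusted p = 0.419; 0.0397 with DESeq2). Its fellow transporter gene Slc2a3 lay the other way, at 102 and 82.4 against 165 and 126 CPM (0.66 ± 0.19, adjusted p = 0.448), so that the Slc2a3 share of the transporter level per kilobase was 34.7% and 34.7% with vehicle and 55.6% and 49.4% with panobinostat.

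Among the 18 higher in cDC, Hk2 had the smallest p-value, at 34.6 and 30.4 CPM with vehicle and 52.8 and 55.3 CPM with panobinostat (0.73 ± 0.13, unadjusted p = 0.00249, adjusted p = 0.392; 0.0189 with DESeq2). The phosphofructokinase genes Pfkp, at 135 and 114 against 183 and 176 CPM, and Pfkl, at 97 and 86.1 against 124 and 114 CPM, lay above vehicle by 0.53 ± 0.13 (adjusted p = 0.431) and 0.37 ± 0.12 (adjusted p = 0.471). Hif1a was at 149 and 150.0 CPM with vehicle and 183 and 196 CPM with panobinostat (0.34 ± 0.11, adjusted p = 0.47). The 5 genes that in pDC had both libraries with panobinostat above both with vehicle were also among the 18 in cDC. None of the 5 passed the test in either cell type. The matching share over all genes was not computed, so no shared response can be read from this overlap. Pfkfb3, the gene with the highest level of its family in cDC, was at 381 and 559.7 CPM with panobinostat, overlapping the vehicle values. Summed NK cell markers were at 93.2 and 129.5 CPM with vehicle and 144 and 321 CPM with panobinostat in these libraries, of which Klrk1 made up 91.4 and 105 against 138 and 173 CPM, and their part in these differences was not tested.

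**Figure D4:**
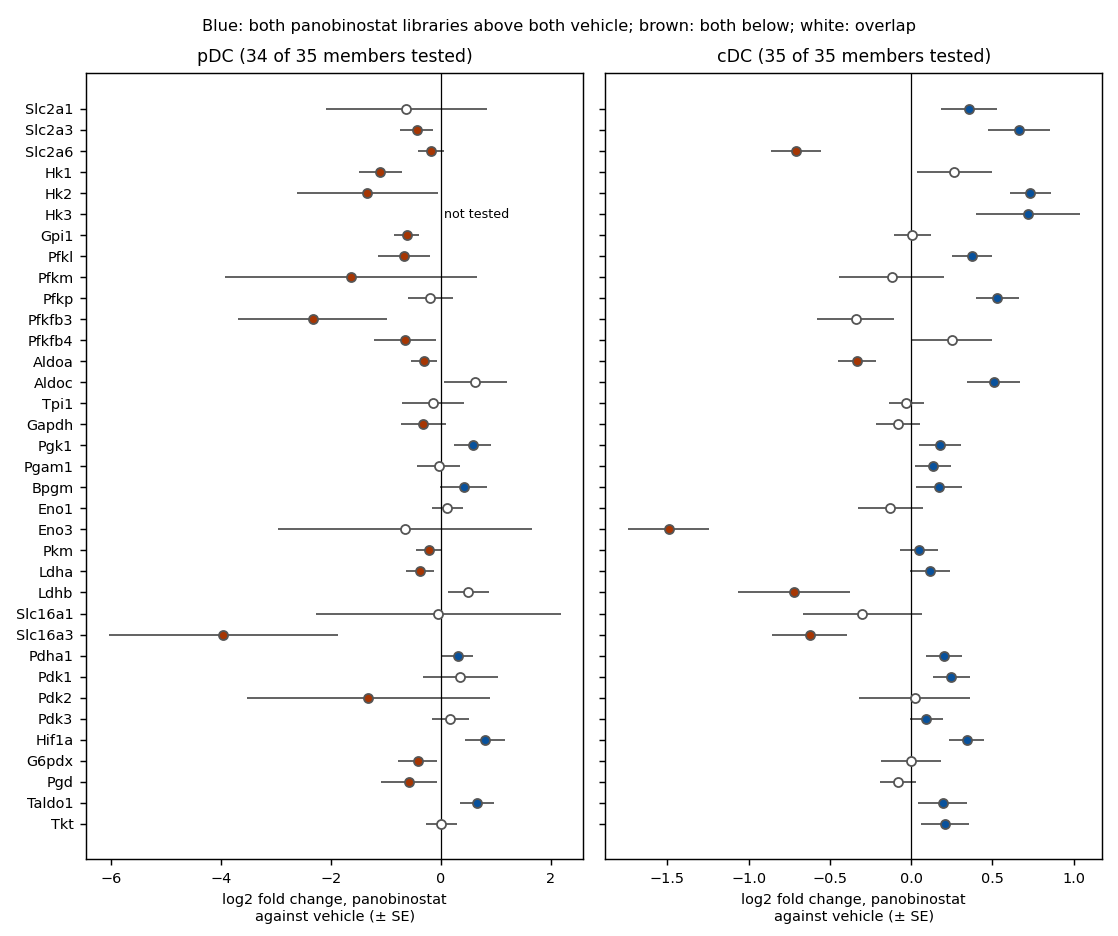
Effect of panobinostat against vehicle on each of the 35 genes in pDC (left; Hk3 not tested) and cDC (right), as the log2 fold change (x axis, with a wider scale on the left) with bars of 1 standard error. Blue points had both panobinostat libraries above both vehicle libraries (5 in pDC, 18 in cDC), brown points both below (17 and 5), and white points overlapped; none passed an adjusted p of 0.05.

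Whether the effect of panobinostat differed between the cell types was tested directly, with all 8 libraries. Of 14228 genes 0.00703% were called, and of the 35 genes 0; 5 reached an unadjusted p under 0.05 (7.77% of all genes did). The pDC minus cDC difference of the log2 effects was -2.06 ± 0.64 for Hk2 (adjusted p = 0.464; -1.98 and 0.042 with DESeq2), -1.36 ± 0.45 for Hk1 (adjusted p = 0.507), -1.10 ± 0.37 for Slc2a3 (adjusted p = 0.507), -0.63 ± 0.22 for Gpi1 (adjusted p = 0.549) and 1.22 ± 0.50 for Ldhb (adjusted p = 0.632). The first 4, a transporter gene and genes of the first and second steps, lay lower in pDC and higher or level in cDC, and Ldhb the reverse. Without pDC panobinostat replicate 2 these differences were -1.66 for Hk2 (adjusted p = 0.052), -1.19 for Hk1 (0.233), -0.93 for Slc2a3 (0.248), -0.66 for Gpi1 (0.24) and 1.55 for Ldhb (0.0832). With DESeq2, Hk2 was the 1 gene of the 35 that was called (2% of all genes). Counts of Hk2 in pDC were low, at 103 and 84 with vehicle and 53 and 13 with panobinostat, the 13 in the library that stood apart. Without pDC panobinostat replicate 2, 0 of the 35 were called (1.85% of all genes), and without replicate 1, which leaves the library that stood apart, 16 were (43.5%).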

How the data were processed

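RNA-seq of 8 libraries (4 groups of 2) was read from the authors' deposited table of counts per Entrez Gene ID. Per the submitters' processing notes, bcl2fastq 2.17.1.14, FastQC 0.11.6, cutadapt 2.1, HISAT2 2.1.0 and featureCounts of Subread 2.0.0 were used, with mm10; the labels name a low-input NEBNext kit. The sources used here do not give strandedness, the annotation used for counting or the handling of reads that match several places, and no molecular identifiers are recorded, so PCR copies count as reads. Intervals and limits for 0 counts cover counting error only.

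Symbols were matched to 25275 of the 27179 IDs. Coordinates and exon lengths come from GENCODE M21 (GRCm38, mm10). TMM factors were computed over the 8 libraries. Each pair of groups was tested with the quasi-likelihood test of edgeR 4.0.16 (R 4.3.3) on its own 4 libraries, since 1 pDC panobinostat library stands apart, and the difference between cell types on all 8. Genes were kept with filterByExpr (minimum count 10), p-values were adjusted by Benjamini-Hochberg over all genes tested, and the threshold was 0.05. CPM are TMM-scaled, CPM per kb divide by the length of the merged exons, and SE is the log2 fold change over the root of F. Isoenzyme shares are descriptions without a test. They depend on the merged exon lengths, which take in the exons of every annotated transcript of a gene. The test was checked on simulated counts with 200 changed genes; with the spread of the pDC panobinostat libraries it recovered none of these in the comparisons of 4 libraries that include them, and part of them for panobinostat in cDC and for pDC against cDC under vehicle. Alternatives were RLE scaling, library totals alone, a minimum count of 50, no filter, a replicate block, DESeq2 1.42.0, limma-voom (limma 3.58.1), the 8 libraries fitted together, and leaving out each library.

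The labels number the replicates 1 and 2 in each group without saying what a number shares. Over 14238 genes, same-numbered libraries deviated together from their group means, with correlations of 0.146 to 0.489 over the 6 pairs of groups, and the blocked fit is given where it changes a call. The 35 genes and the lists of neighbouring pathways and markers were chosen with earlier results of these data known. Values are given by library for each gene called in any comparison and for the gene with the highest level in each role; of the listed neighbours, the 2 with the smallest p in each direction are named.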

Additional observations from a re-analysis of the deposited data

How the results depend on the processing

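Under vehicle, the count of called genes among the 35 was 15 and fell to 7 with all 8 libraries fitted together; leaving out 1 library gave 8 to 14 called genes and a median log2 difference of -0.269 to -0.081, and RLE scaling a median of -0.302. Under panobinostat, the count of 1 for pDC against cDC became 3 with a replicate block (median -0.836), 9 with DESeq2, 2 with limma-voom and 11 with all 8 libraries, and leaving out 1 library gave 2 to 25 called genes and medians of -0.94 to -0.489. For panobinostat in pDC, leaving out 1 library gave 0 to 13 called genes and medians of -0.581 to -0.198, the 13 without pDC panobinostat replicate 1. For panobinostat in cDC, the median of 0.116 became -0.023 with library totals alone, 1 gene was called with the replicate block and 3 with DESeq2. For the difference between cell types, DESeq2 called 1 gene, limma-voom gave a median of -0.416, and leaving out 1 library gave 0 to 16 called genes and medians of -0.667 to -0.228. Without pDC panobinostat replicate 1, the sign turned for Pdk2 in pDC against cDC under panobinostat (leaving out 1 library gave -10.211 to 1.352) and for Eno3 (-8.967 to 1.796) and Slc16a1 (-7.561 to 1.193) in the difference between cell types; these 3 genes have 0 counts in the library that remains. Without a call in either fit, the sign also turned for Pdk2 in that comparison with a replicate block (-2.722) and limma-voom (-3.668), and with limma-voom for Eno3 (-2.288) and Slc16a1 (-1.924) in the difference. Leaving out a library leaves a group with 1 sample, which is assumed to vary like the other groups. Beyond the calls named here and in the report, the cause of these shifts was not tested.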
